A study of Homo sapiens with 12 samples.

Results

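The genes described are the 32 listed autosomal members of the SOX and T-box families of transcription factors, 18 SOX genes and 14 T-box genes, of 19111 autosomal protein-coding genes annotated in GENCODE release 44. They were chosen by name, and each was found 1 time in the annotation. H3K27me3 ChIP-seq had been done on human SH-SY5Y neuroblastoma cells with the antibody C36B11. The cells expressed Tau (WT) or were knocked out for MAPT, the gene of Tau, in the Tau-KO lines 231K and 232P. There were 2 biological replicates of each of the 3 genotypes, and each of the 6 samples had its own list of peaks. SH-SY5Y is a line of sympathetic neuroblast character derived from a neuroblastoma. No treatment was given, and cells of all genotypes were grown in the same medium. By label, the replicates of each knock-out come from the same line. A difference between 231K or 232P and WT therefore belongs to the line so labelled. The peak lists do not measure Tau, so the knock-out could not be checked in them. Names of peaks in the 232P lists carry the code of 231P, a further Tau-KO line of the paper. The sample labels were followed here.

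H3K27me3 is the trimethylation of lysine 27 of histone H3, written by the Polycomb Repressive Complex 2 (PRC2). It is found mostly at developmental genes that are silent in a given cell type, and often at promoters rich in CpG. SOX proteins bind DNA through an HMG box. SOX1 and SOX2 mark neural progenitors, SOX4 and SOX11 act in differentiating neurons and sympathetic neuroblasts, and SOX8, SOX9 and SOX10 act in the neural crest and glia. SOX17 and SOX18 act in endoderm and endothelium. T-box proteins bind DNA through the T domain and pattern mesoderm, heart, limbs and parts of the brain. TBX5 specifies forelimb and heart, TBX15 and TBX18 act in mesenchyme, TBR1 and EOMES act in cortical neurons and their progenitors, and TBXT is the brachyury gene of the primitive streak.

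The lists of WT replicates 1 and 2 held 285826 and 222191 peaks. Those of 231K held 271413 and 212347, and those of 232P held 147118 and 199677. The peaks covered 214 and 283 Mb in WT, 197 and 290 Mb in 231K, and 70.3 and 212 Mb in 232P. The list of 232P replicate 1 therefore stands apart, with the fewest peaks and the smallest covered length. Its relative depth, recovered from the local background of the peaks, was 68.1% of that of WT replicate 1, whereas the 4 lists beside these lay between 56.9% and 94.8%. The number of reads is unknown, so no interval from counts is given, and a gene without a peak means only that none passed the threshold at that depth. The smallest peak, which follows the fragment length, was 175 to 179 bp wide in the replicate 1 lists and 240 to 262 bp wide in the replicate 2 lists. Peaks of replicate 2 were also wider, with medians of 666 to 688 bp against 335 to 441 bp, and differences between replicate numbers in covered length move with this.

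A TSS mark was called where any peak reached within 1 kb of an annotated start site of the gene, on either side. In both WT lists, 11 of the 32 genes had a TSS mark, or 34.4%, beside 14.8% of all genes. They were TBX15, TBX5, TBR1, EOMES, TBX18, TBX21 and TBX1 among the T-box genes, and SOX17, SOX1, SOX14 and SOX6 among the SOX genes. No WT list had a TSS mark for 20 genes, where the share of all genes was 82.1%, and SOX5 had one in WT replicate 2 alone. By class, 7 of 14 T-box genes, 3 of 12 neural and neural crest SOX genes and 1 of 6 other SOX genes were marked in both WT lists. These counts are a description of genes chosen by name, and the difference between the classes was not tested. The mark held in all 6 lists for 5 genes, TBX15, TBX5, TBR1, EOMES and SOX17, beside 10.8% of all genes. It was in none of the lists for 17 genes, beside 80.4% of all genes. A peak anywhere in the gene or its flanks of 1 kb was found in all 6 lists for 10 of the 32 genes, beside 15.2% of all genes.

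The sequences below show where the mark lay. SOX1, a neural progenitor gene, had peaks on both sides of its start and none over it. Its window from 250 bases before to 50 after the start (chr13:112066899-112067198, plus strand) held 37 CpG and was not covered in any list. The 300 bases around the summit of the strongest SOX1 peak in WT replicate 1 (chr13:112071121-112071420, plus strand), 4122 bp into the gene, held 5. TBR1 and TBX5 had peaks over the start itself in both WT lists. The TBR1 window (chr2:161416047-161416346, plus strand) held 4 CpG and was covered over all 300 bases in 5 lists and over 124 bases in 232P replicate 1. The TBX5 window at its RefSeq start (chr12:114407963-114408262, minus strand) held 21 CpG and was covered over 218 and 300 bases in WT, 300 and 300 in 231K, and 300 and 17 in 232P. The start windows of 2 unmarked genes are shown beside them. That of SOX4 (chr6:21593501-21593800, plus strand), a gene of neuronal differentiation, held 8 CpG, and that of TBX20 (chr7:35254051-35254350, minus strand), a heart gene, held 38. Neither was covered in any list. Start windows are from RefSeq (GRCh38.p14) and the SOX1 summit is from hg38. Capitals mark CpG.
SOX1 start: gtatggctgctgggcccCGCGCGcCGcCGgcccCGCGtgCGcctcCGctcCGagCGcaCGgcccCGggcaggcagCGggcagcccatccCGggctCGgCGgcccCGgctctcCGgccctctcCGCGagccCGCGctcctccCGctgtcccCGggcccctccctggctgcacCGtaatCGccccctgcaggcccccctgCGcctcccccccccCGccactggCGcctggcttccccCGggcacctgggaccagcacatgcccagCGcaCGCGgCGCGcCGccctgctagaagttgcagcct
SOX1 summit: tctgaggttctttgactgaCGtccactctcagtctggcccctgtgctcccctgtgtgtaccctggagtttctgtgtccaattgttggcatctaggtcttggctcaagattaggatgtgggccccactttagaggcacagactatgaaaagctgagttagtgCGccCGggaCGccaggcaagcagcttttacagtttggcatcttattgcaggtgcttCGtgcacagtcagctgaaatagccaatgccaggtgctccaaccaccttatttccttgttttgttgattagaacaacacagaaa
TBR1 start: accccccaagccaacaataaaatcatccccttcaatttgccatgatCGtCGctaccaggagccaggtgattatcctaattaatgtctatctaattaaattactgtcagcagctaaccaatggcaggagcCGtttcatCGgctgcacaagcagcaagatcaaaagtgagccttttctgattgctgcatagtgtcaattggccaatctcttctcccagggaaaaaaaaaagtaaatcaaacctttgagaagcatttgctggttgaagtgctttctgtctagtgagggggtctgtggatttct
TBX5 start: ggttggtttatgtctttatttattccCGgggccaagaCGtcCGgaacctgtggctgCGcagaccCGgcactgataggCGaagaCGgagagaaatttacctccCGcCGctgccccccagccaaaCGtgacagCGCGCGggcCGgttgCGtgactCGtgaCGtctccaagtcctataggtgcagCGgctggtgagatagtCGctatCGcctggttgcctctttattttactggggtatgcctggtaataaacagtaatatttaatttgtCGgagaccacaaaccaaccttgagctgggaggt
SOX4 start: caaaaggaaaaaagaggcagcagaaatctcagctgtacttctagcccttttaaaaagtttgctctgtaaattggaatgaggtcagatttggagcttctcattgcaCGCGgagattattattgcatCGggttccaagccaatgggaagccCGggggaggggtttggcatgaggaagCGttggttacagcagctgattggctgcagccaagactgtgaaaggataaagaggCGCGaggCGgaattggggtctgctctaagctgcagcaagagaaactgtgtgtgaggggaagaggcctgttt
TBX20 start: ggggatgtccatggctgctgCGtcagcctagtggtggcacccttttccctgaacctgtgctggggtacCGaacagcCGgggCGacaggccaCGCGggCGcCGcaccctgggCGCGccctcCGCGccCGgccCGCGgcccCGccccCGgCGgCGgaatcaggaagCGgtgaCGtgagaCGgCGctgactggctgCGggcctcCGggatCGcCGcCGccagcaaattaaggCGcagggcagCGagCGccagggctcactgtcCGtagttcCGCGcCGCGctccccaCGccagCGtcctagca

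**Figure D1:**
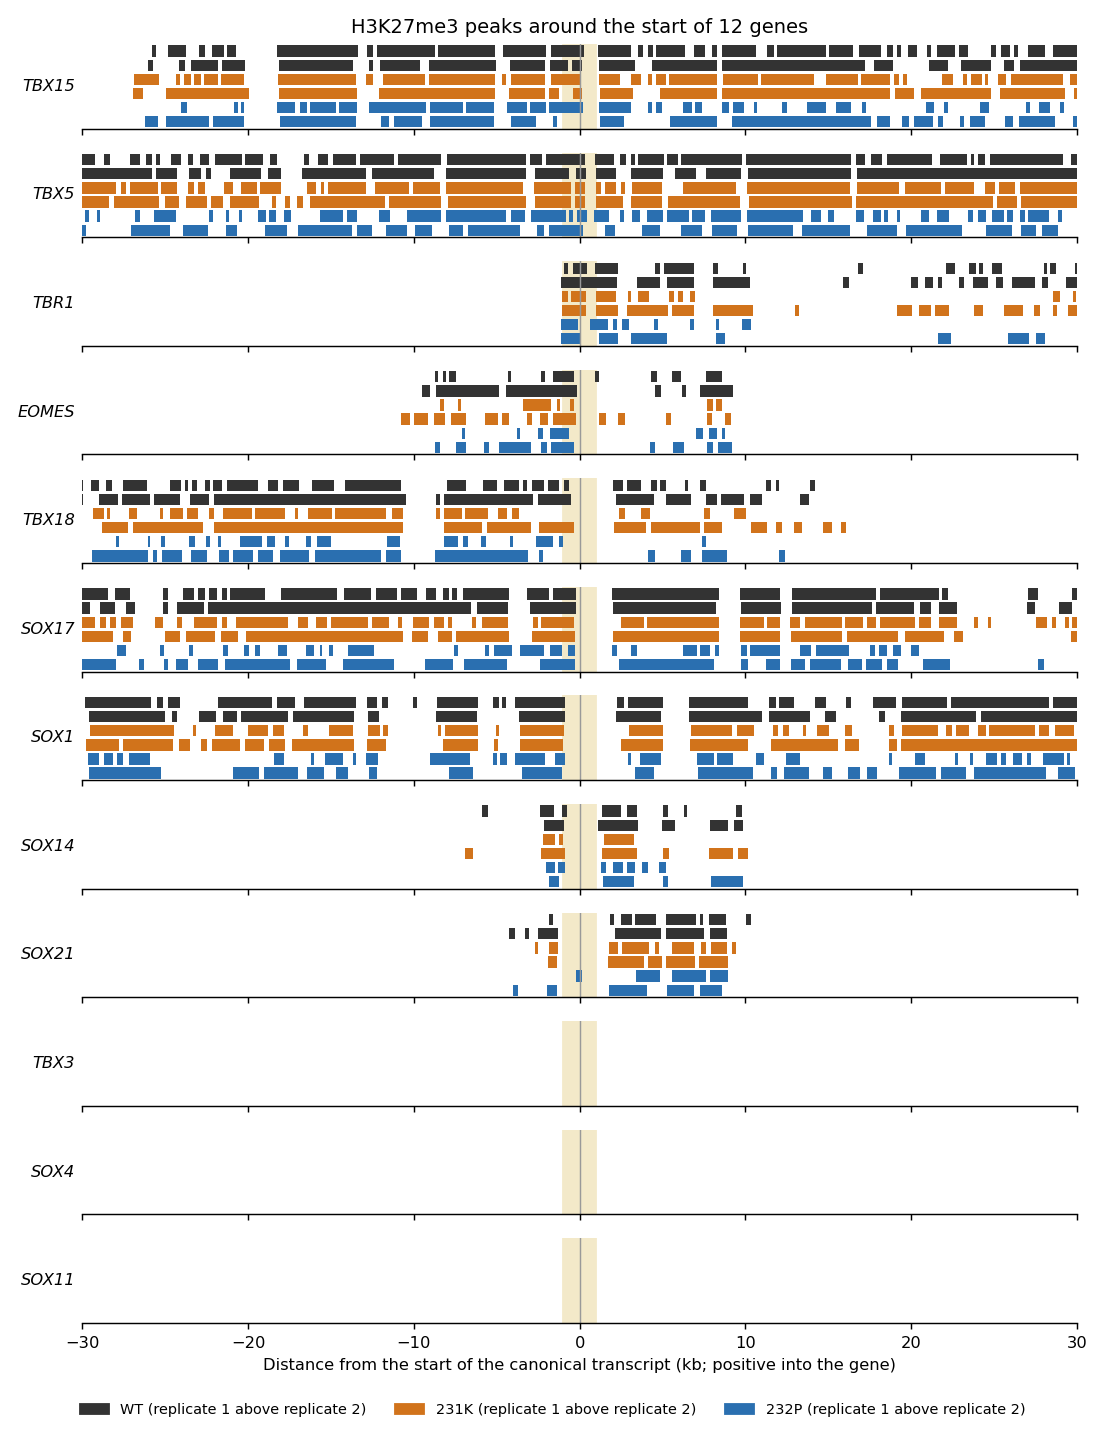
Peaks in the 6 lists within 30 kb of the start of the canonical transcript of 12 genes, by distance in kb with positive values into the gene. Each bar is a peak, colours give the genotype, and the shaded band is the 1 kb on each side of the start. The start was covered in every list at TBX5, in all but 232P replicate 2 at TBX15, and in all but 232P replicate 1 at TBR1. SOX17, SOX1, SOX14 and TBX18 show an empty stretch there in every list and SOX21 in all but 232P replicate 1, and TBX3, SOX4 and SOX11 have no peak in the window.

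The T-box genes held the longest marks. TBX15 (chr1:118883046-118989556), a gene of skeletal and skin mesenchyme, was covered over 52090 and 57232 bp in WT, 49383 and 56398 bp in 231K, and 17766 and 48609 bp in 232P, counting the gene and 1 kb on each side. This is 50.4% ± 3.35 (SD, n = 2) of the region in WT, 48.7% ± 4.57 in 231K and 30.6% ± 20.1 in 232P. The WT and 231K lists overlapped in covered length, with 231K below WT within each replicate number, and both 232P lists were below both WT lists, with 232P replicate 1 far the lowest. With peaks within 1 kb of each other joined, the longest stretch at TBX15 was 41699 bp in WT replicate 1 and between 18577 and 27600 bp in the other lists.

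TBX5 (chr12:114353911-114408442) had the largest covered share of the 32 genes in WT, 70.6% ± 0.682 (SD, n = 2), and 665 of all 19111 genes had a larger one. It was covered over 39649 and 40194 bp in WT, 39383 and 45859 bp in 231K, and 23316 and 31429 bp in 232P. Again both 232P lists were below both WT lists. The highest fold enrichment at a TBX5 start, the ratio of reads to local background, was 9.93 and 7.99 in WT, 9.84 and 9.59 in 231K, and 6.96 and 7.06 in 232P.

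The mark at TBX5 ran on past its start towards TBX3, a related gene that acts with TBX5 in limb and heart, and ended before reaching it. Of the 264 kb between the canonical start of TBX5 and the end of TBX3 that faces it, peaks covered 48.6% and 55.8% in WT, 46.5% and 60.6% in 231K, and 23.3% and 47.2% in 232P. The last peak ended 197 and 204 kb from the TBX5 start in WT, 211 and 203 kb in 231K, and 192 and 197 kb in 232P. This end lay within 192 to 211 kb in all 6 lists, although the covered share between them differed. No peak of any list lay in TBX3, and the peak nearest to a TBX3 start was 62.8 to 81.5 kb away.

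**Figure D2:**
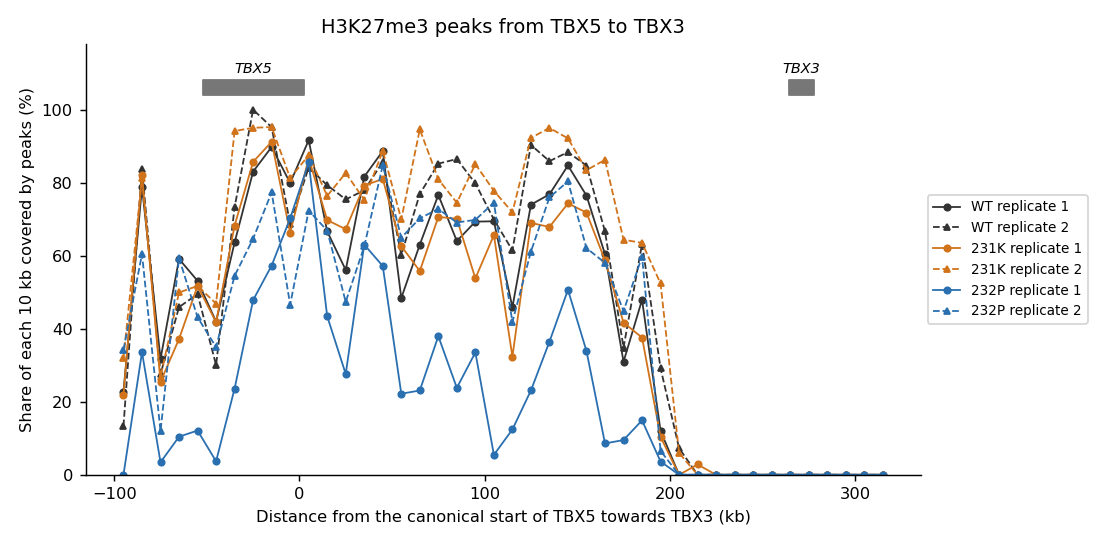
Share of each 10 kb covered by H3K27me3 peaks (percent), by distance from the canonical start of TBX5 towards TBX3 in kb, with lines for the 6 lists and bars for the genes. The share fell to 0 between 200 and 220 kb in all lists and stayed at 0 over TBX3, and the line of 232P replicate 1 is the lowest over most of the stretch.

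TBR1 (chr2:161416297-161425870), a gene of deep-layer cortical neurons, was covered over 4999 and 8609 bp in WT, 4139 and 8940 bp in 231K, and 3766 and 4910 bp in 232P. EOMES (chr3:27715949-27722711), its relative in intermediate progenitors, was covered over 2222 and 1966 bp in WT, 446 and 2282 bp in 231K, and 1076 and 2053 bp in 232P. For TBR1, both 232P lists were below both WT lists, replicate 2 by little, and for EOMES the groups overlapped. The third gene of this subfamily, TBX21, directs T helper cells and had a short mark. It was covered over 940 and 1239 bp in WT, 216 and 536 bp in 231K, and 559 and 457 bp in 232P, so that all Tau-KO lists were below both WT lists. Of all genes tested, 13.3% were below WT in both 231K lists and 43.3% in both 232P lists. The share below in both lines at once was not computed.

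TBX18 (chr6:84687351-84764598), a gene of sinoatrial and ureteral mesenchyme, was the 1 gene of the 32 whose TSS mark was present in both WT lists and in neither list of a Tau-KO line. It was covered over 3858 and 7646 bp in WT, 1955 and 9264 bp in 231K, and 232 and 2870 bp in 232P. The highest fold enrichment at a TBX18 start was 3.32 and 5.78 in WT and 6.81 in 231K replicate 2, and 231K replicate 1 and both 232P lists had no peak within 1 kb. The nearest peak lay 617 and 502 bp from a start in WT, 1135 and 320 bp in 231K, and 1003 and 2184 bp in 232P, so in 232P replicate 1 the mark missed the window by 3 bp. TBX18 therefore counts as lost in 232P only by a narrow margin, and a 2.5 kb window gave no lost gene in 232P. TBX1, a gene of the pharyngeal arches, had TSS marks in 4 lists, and its covered length was 1800 and 560 bp in WT, 399 and 0 bp in 231K, and 2585 and 400 bp in 232P. The remaining T-box genes TBX3, TBX4, TBX6, TBX10, TBX19, TBX20 and TBXT had no TSS mark in any list. TBXT had small peaks 1422 to 1783 bp from a start, of 249 bp in WT replicate 2 and of 367 and 414 bp in 232P, and none in the other lists.

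Among the SOX genes, SOX17 (chr8:54457935-54460892), an endoderm and endothelial gene, had the largest covered share in WT, 56.2% ± 0.813 (SD, n = 2). In 232P replicate 1, SOX1 and SOX14 had larger shares. The covered length of SOX17 was 2815 and 2758 bp in WT, 2053 and 2693 bp in 231K, and 1102 and 2308 bp in 232P. All 4 Tau-KO lists were below both WT lists, 231K replicate 2 by little, and the share of all genes with this pattern was not computed. Around its start a stretch of 2143 to 2833 bp was free of peaks, with the nearest peak 218 to 371 bp upstream.

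SOX1 (chr13:112067149-112071706) was covered over 2681 and 2836 bp in WT, 2137 and 2539 bp in 231K, and 1591 and 1179 bp in 232P. All Tau-KO lists were below both WT lists, and the share of all genes with this pattern was not computed. It lies in a wide marked region, with 70.0% and 71.1% of the 100 kb around its start covered in WT, 57.6% and 71.1% in 231K, and 42.5% and 51.8% in 232P. The start sat in a stretch of 3099 to 4377 bp without peaks. The upstream peak ended 866 to 1050 bp before the start, so the TSS mark of SOX1, called in 4 lists, turned on whether it crossed the 1 kb limit. It was missed by 22 bp in 231K replicate 2 and by 50 bp in 232P replicate 2, and these calls are not a loss of the region.

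SOX14 and SOX21, SOXB genes that repress SOX1 and SOX2 targets, had the same layout. At SOX14 (chr3:137764315-137766334), the peak-free stretch measured 2068 to 2631 bp, and its nearest peak ended 741 to 1255 bp from the start. The covered length was 1579 and 1952 bp in WT, 1579 and 1800 bp in 231K, and 1197 and 1643 bp in 232P. The groups overlapped, and 232P was below WT within each replicate number. At SOX21 (chr13:94709622-94712545), the peak-free stretch measured 3100 to 3469 bp in 5 lists, so that no TSS mark was called in them although the gene was covered over 1513 and 1766 bp in WT, 1865 and 2163 bp in 231K, and 899 and 2146 bp in 232P. The TSS mark at SOX21 in 232P replicate 1 was a peak of 371 bp and 6 reads. SOX2, the neural stem cell gene of this group, had no peak in the replicate 1 lists, and in the replicate 2 lists 830 bp were covered in WT, 248 bp in 231K and 352 bp in 232P, starting 2056 to 2740 bp from the start.

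The neural crest and glial SOXE genes SOX8, SOX9 and SOX10 had no TSS mark in either WT list. In the gene or 1 kb on each side, SOX8 had a peak in 5 lists and SOX9 in 3. SOX10 had no peak in any list, and the nearest one lay 416 to 644 kb from a start. SOX9 had no TSS mark in WT, and its covered length was 368 and 0 bp in WT, 0 and 0 bp in 231K, and 188 and 79 bp in 232P. The nearest peak lay 1162 and 1004 bp from the SOX9 start in WT and 1066 and 922 bp in 232P, close to the 1 kb limit on either side, and 1045362 and 641361 bp away in 231K. SOX8 was covered over 696 and 819 bp in WT, 477 and 1023 bp in 231K, and 1529 and 0 bp in 232P. Except in 232P replicate 1, where a peak of 454 bp also lay 739 bp from a start, these peaks sat near the far end of SOX8. The 100 kb around the SOX8 start were covered over 15.5% and 14.8% in WT. In 231K the shares were 6.65% and 10.9%, and in 232P 24.0% and 4.59%. The SOXC genes SOX4, SOX11 and SOX12 had no peak in any list, with the nearest ones at 190, 461 and 97.3 kb or more. Of the SOXD genes, SOX6 had weak peaks at an upstream start in 5 lists, with a highest fold enrichment between 2.15 and 4.16, and its canonical start region was free of peaks over 10 kb on each side. SOX5 had TSS marks in 3 lists, WT replicate 2, 231K replicate 2 and 232P replicate 2, which are all replicate 2. SOX13 and SOX18 had a small peak each in 231K replicate 2 and 232P replicate 1.

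**Figure D3:**
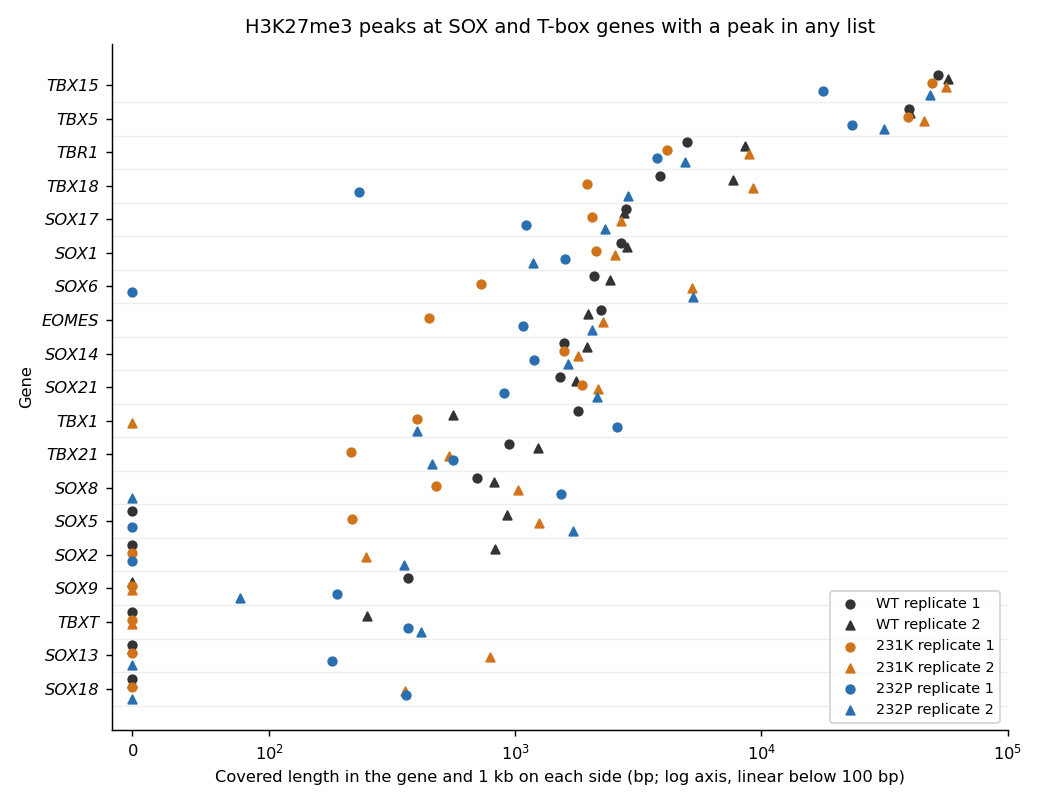
Covered length in bp (log axis, linear below 100 bp) of each SOX or T-box gene with a peak in any list, in the gene and 1 kb on each side, with a point for each of the 6 lists. TBX15 and TBX5 lie above 10000 bp in every list, and from SOX8 downward each gene has 0 bp in 1 list or more.

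For the 13 genes with no peak in any list, SOX4, SOX7, SOX10, SOX11, SOX12, SOX15, SOX30, TBX3, TBX4, TBX6, TBX10, TBX19 and TBX20, the nearest peak was over 50 kb from a start in every list. Of all 14336 genes with no peak in any list, 75.0% of the genes annotated, the nearest peak was over 50 kb away for 72.9%. The median distance to the nearest peak of any list was 190 kb for the 13 genes and 125 kb for all such genes. The range for the 13 genes ran from 62.8 kb at TBX3 to 960 kb at TBX6.

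An annotated start was itself covered in both WT lists in 4 of the 11 marked genes, TBX15, TBX5, TBR1 and EOMES, or 36.4%, beside 51.0% of all 2822 genes marked in both WT lists. Within 10 kb of the canonical start, the stretches covered in both WT lists held less G and C than those covered in neither in 8 of the 11 genes with enough of both, beside 54.1% of 3126 genes over the whole annotation. The ratio of observed to expected CpG was lower in the covered stretches in 9 of the 11 genes, beside 70.9% of the 3126. For SOX1, the G and C share was 44.9% in covered and 69.3% in uncovered bases, and the ratio of observed to expected CpG was 0.438 and 0.889. For SOX17, the shares were 39.7% and 69.1%. For TBX5 they were 49.2% and 69.8%, and for TBX15 47.9% and 64.9%. TBR1 and TBX21 went the other way, and at EOMES both shares were 49.3%. In these 8 genes peaks lay more in the stretches poorer in G and C. Whether base composition affects the detection of peaks in these libraries was not tested.

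**Figure D4:**
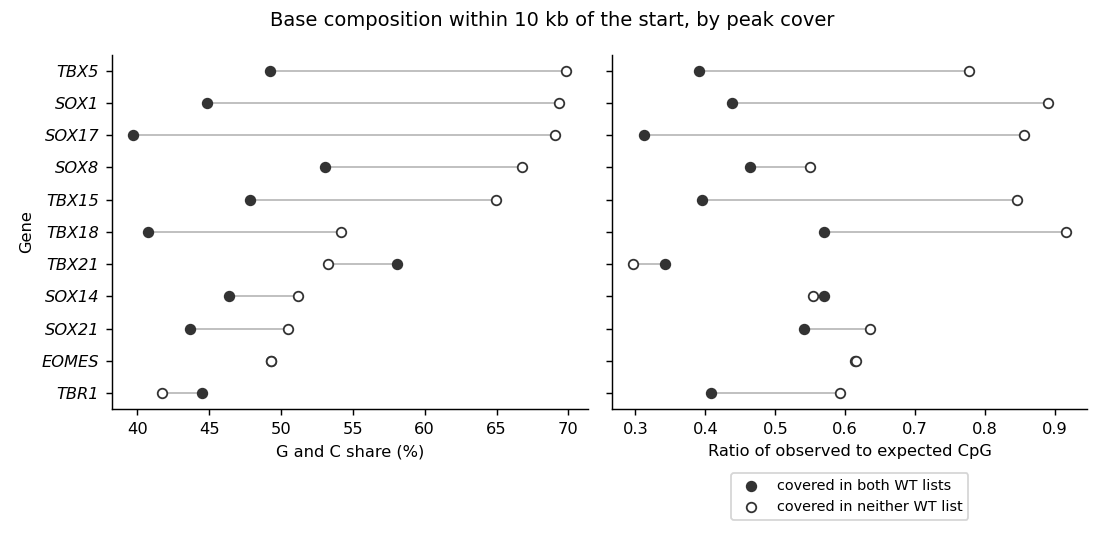
Share of G and C (percent, left) and ratio of observed to expected CpG (right) within 10 kb of the canonical start, in bases covered by peaks of both WT lists (filled) or of neither (open), for each of 11 SOX or T-box genes. Open points lie to the right of filled ones for SOX17, SOX1, TBX5 and TBX15, and the points nearly coincide for EOMES.

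The median ratio of observed to expected CpG in the 1 kb on each side of the canonical start was 0.715 in the 11 genes marked in both WT lists and 0.761 in the 20 genes marked in neither. Over all genes, it was 0.361 in those marked at the start in both WT lists and 0.658 in those marked in neither. The median of the 11 marked genes was thus above that of all marked genes, although SOX6 had a ratio of 0.168. In the 300 bases of hg38 at the canonical start, searched on both strands, TATAAA was found in 4 of the 32 genes, ACAAAG, a core of SOX sites, in 5, and AGGTGT, a core of T-box sites, in 4. Over all genes, these shares were 9.74%, 12.2% and 10.6%.

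The comparison of Tau-KO with WT cells asked whether the mark differed without Tau. TSS marks were counted in 11 and 12 of the 32 genes in the WT lists, 8 and 10 in 231K, and 11 and 8 in 232P. The same shares of all genes were 16.2% and 16.5%, 14.9% and 16.4%, and 13.4% and 14.6%. None of the 11 WT marks was lost in both 231K lists, beside 2.13% of all genes marked in WT, and 1 was lost in 232P, TBX18, beside 5.42%. No gene of the 20 without a WT mark gained one in both lists of 231K or of 232P, beside 0.159% and 0.0765% of all genes.

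The 32 genes together were covered over 125 kb ± 10.4 (SD, n = 2) in WT, 123 kb ± 25.7 in 231K and 81.3 kb ± 34.7 in 232P. The ratio to WT was 0.988 in 231K and 0.652 in 232P, and over all genes it was 0.995 and 0.599. Within replicate number 1, the ratio was 0.895 for 231K and 0.483 for 232P, and over all genes 0.938 and 0.368. Within replicate number 2, it was 1.07 and 0.802, and over all genes 1.04 and 0.775. The ratios thus moved in the same direction as over all genes, and without 232P replicate 1 the covered length in 232P was 106 kb. TBX15 and TBX5 alone made up 91.7 and 97.4 kb in WT, and the other genes summed to 25.6 and 34.6 kb in WT, 16.2 and 39.1 kb in 231K, and 15.6 and 25.8 kb in 232P.

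Of 4182 genes with a peak in 2 or more lists, limma called none as changed in covered length in 231K or in 232P at an adjusted p under 0.05, which is 0% of the genes tested. At an unadjusted p under 0.05 there were 74 and 334. Of the 19 SOX and T-box genes tested, none was called and none had an unadjusted p under 0.05 in either comparison. Both 231K lists were below both WT lists for 4 of these genes, SOX1, TBX21, TBX1 and SOX17, beside 13.3% of all genes tested, and above for 1, SOX21, beside 5.4%. Both 232P lists were below both WT lists for 7 genes, TBX15, TBX5, SOX1, TBX21, TBR1, TBX18 and SOX17, beside 43.3% of all genes tested, and above for 1, TBXT, beside 0.909%. Since peak width differed by replicate number, the lists were also compared within each number, a choice made after seeing the data. In 231K, 5 of the 19 genes were below WT within both numbers, beside 27.5% of all genes tested, and 2 were above, beside 18.1%. In 232P, 8 were below within both, beside 69.9%, and 1 was above, beside 1.87%. The 2 comparisons share the WT lists. SOX1, TBX21 and SOX17 were below WT in both lines, and the share of all genes below in both was not computed.

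The median log2 change in covered length was -0.05 over all genes tested in 231K and -0.81 in 232P. It was -0.14 and -0.45 over the 19 SOX and T-box genes. Over the 2896 genes with a peak in all lists, the median log2 covered length was 12.7 and 13.0 in WT. It was 11.5 and 12.6 in 232P, so 232P replicate 1 lay much farther below WT than replicate 2. The size of the change for the largest marks is thus read against that shift of all genes in 232P. TBX15 changed by -0.05 (SE 0.56) in 231K and -0.89 (SE 0.56) in 232P on the log2 scale, and by -0.09 in 232P once each list was centred on its median. TBX5 changed by 0.09 (SE 0.36) and -0.56 (SE 0.36), and by 0.24 in 232P once centred. SOX1 changed by -0.23 (SE 0.45) and -0.91 (SE 0.45), and by -0.11 in 232P once centred. TBX18 had the largest decrease in 232P, with -2.29 (SE 1.16) as listed and -1.49 centred, and limma gave an adjusted p of 0.504 and 0.953. TBX1 had the largest decrease in 231K, with -1.83 (SE 1.05) and an adjusted p of 1 by limma. None of these changes passed the test.

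**Figure D5:**
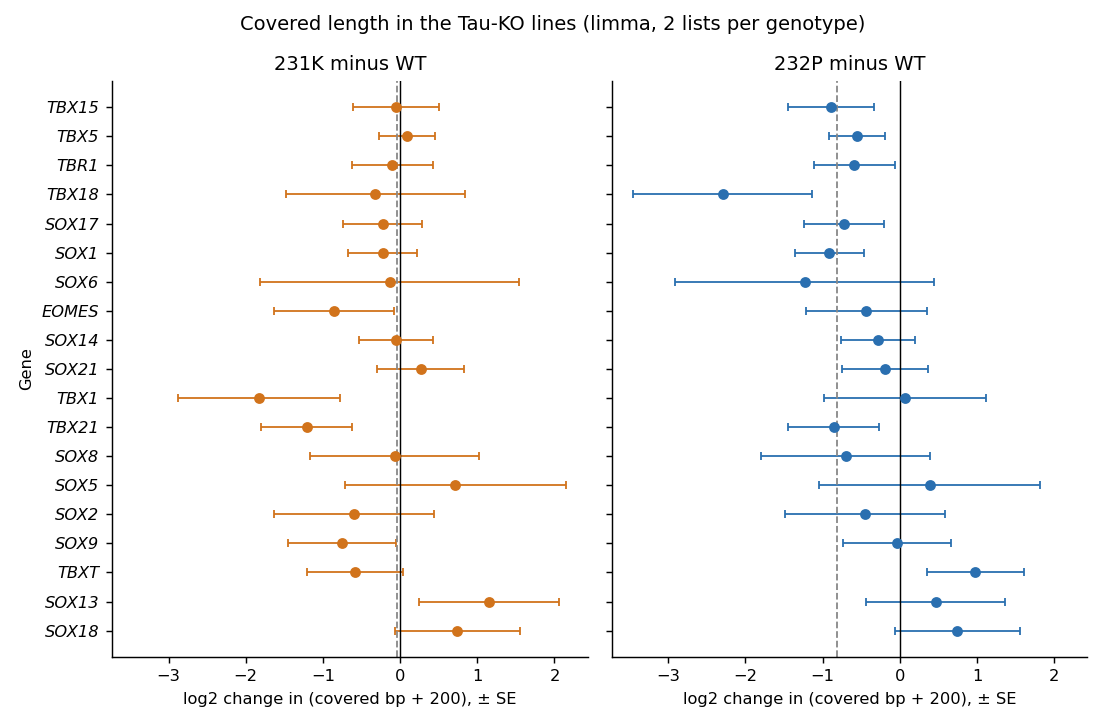
log2 change in covered length (covered bp plus 200) with its SE from limma for 19 SOX and T-box genes, 231K minus WT on the left and 232P minus WT on the right, from 2 lists per genotype. The dashed line is the median of all 4182 genes tested, and in 232P most genes lie near that line at -0.81 or between it and 0, with TBX18 farthest below.

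Peak strength was tested in the 2063 genes with a TSS mark in all lists, among them TBX15, TBX5, TBR1, EOMES and SOX17, and limma called none in 231K or 232P, 0% of the genes tested. At an unadjusted p under 0.05 there were 50 and 116 genes. The highest fold enrichment at a TBX15 start was 8.73 and 7.57 in WT, 10.2 and 8.35 in 231K, and 4.74 and 4.82 in 232P. The 232P values were the lowest and did not overlap with the others. The change at TBX15 in 232P was -0.77 (SE 0.27) on the log2 scale, with a limma p of 0.00783 that became 0.821 after adjustment over all genes. The median over all genes was -0.21 in this comparison. The other 4 genes changed by between -0.38 and 0.32 on the log2 scale in both lines, with limma adjusted p of at least 0.854.

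The genes around these factors were read from lists fixed by name. Of 14 neural crest regulators, 7 had a TSS mark in both WT lists, beside 14.8% of all genes. In all lists 6 had one, PAX3, PAX7, MSX1, TFAP2A, FOXD3 and LMX1A, beside 10.8% of all genes. ZIC1, a zinc finger gene of the neural plate border, was lost in 232P. It was covered over 2881 and 8043 bp in WT, 527 and 2954 bp in 231K, and 312 and 1506 bp in 232P, so only 231K replicate 2 reached the WT range. Of 14 heart and mesoderm partners of T-box factors, 3 were marked in all lists, NKX2-5, GATA6 and FOXC2, beside the same 10.8%. Of the 9 autosomal genes among 11 Schwann cell and melanocyte genes downstream of SOX10, none was marked in both WT lists, beside the same 14.8%. TYR, the tyrosinase gene, had a TSS mark in both 231K lists and no other, with a highest fold enrichment of 2.87 and 2.25. It was covered over 1182 and 6138 bp in WT, 3260 and 6407 bp in 231K, and 726 and 5163 bp in 232P, so the groups overlapped over the gene. No gene of these lists was called by limma.

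The 8 autosomal genes among 10 housekeeping genes had no peak in any list, beside 75.0% of all genes. Of 14 sympathoadrenal genes that mark the labelled cell type, 12 had no TSS mark in any list, among them HAND2, GATA3, TH and DBH, beside 80.4% of all genes. Of 8 mesenchymal genes, PRRX1 was the 1 gene with a TSS mark in all lists, beside 10.8% of all genes. Peak lists do not measure expression, so the lists show only where the mark was found.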

How the data were processed

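H3K27me3 ChIP-seq of SH-SY5Y cells, WT, 231K and 232P, gave 1 peak list for each of 6 ChIP samples. Input samples, 6 in number, were not used here. Reads were trimmed (trimmomatic) and aligned to hg38 by the authors with BWA (also named in the submitters' processing notes, beside deepTools) before peaks were called per sample with MACS. Their methods name the broadPeak setting, whereas the files are in narrowPeak format with 10 columns. Thresholds and control libraries are not given in the sources used here. The deposited fold enrichment is a ratio of reads to local background at the summit, p-values and q-values were deposited as -log10, and the deposited score equals the -log10 q-value times 10. All of them depend on depth. The line code in the peak names of the 232P lists is that of 231P, a further Tau-KO line of the paper. The sample labels were followed, and whether these lists came from 232P or 231P was not settled.

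All 24 chromosomes of the lists matched hg38. Genes and start sites came from GENCODE 44. Covered length is the number of bases under peaks in the gene and 1 kb on each side. limma 3.58.1 (R 4.3.3, with a trend) was fitted across all genes on log2(covered bp + 200) for genes with a peak in 2 or more lists, and on log2 of the highest fold enrichment at a start for genes marked in all lists, with Benjamini-Hochberg adjustment. Read heights and relative depth were recovered from fold and p-value by the Poisson distribution of MACS, and came out whole within 0.001 of the -log10 p-value for 100% of peaks. RefSeq start windows were given for 21 of the 32 genes, so composition and motifs were computed on hg38 for all. The steps were tested on simulated data. Members and gene lists were chosen with earlier results of these data known. Genes given with values in every list are the 6 with the longest mean covered length in WT, those lost or gained, SOX1, SOX2, SOX4, SOX8, SOX9, SOX10, SOX11, SOX21, TBR1, EOMES and TBXT, and lost or gained genes of the other lists. Values of SOX14, TBX1 and TBX21 were added after they were seen. The result for 1 gene of the other lists is not reported here. The alternatives are peak thresholds, list size, windows, pseudocount, filter, centring, joining, a replicate block and leaving out each sample.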

Additional observations from a re-analysis of the deposited data

How the results depend on the processing

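Genes marked at the start in both WT lists were 6 in place of 11 when only peaks reaching a -log10 q-value of 5 were kept, or with 500 bp of the window covered, where all such genes fell from 2822 to 1530 and to 2178. With a q-value under 0.05 they were 9, without SOX6 and SOX14, beside 2752 over all genes. Genes lost in 231K, 0 as reported, were 1 with a 2.5 kb window (SOX9) or with 500 bp covered (TBX1), and 0 to 3 leaving out each replicate, beside 60 to 223 over all genes (60 as reported). Genes lost in 232P, 1 as reported, were 2 at the -log10 q-value of 5 (TBX15 and EOMES, beside 274 over all genes in place of 153), 0 with lists of equal size, a 2.5 kb window, the whole gene region or 500 bp covered, and 1 to 5 leaving out each replicate. The 5 arose without 232P replicate 1, beside 324 over all genes, and 2 without 232P replicate 2, beside 534. Genes gained in 231K were 1 with a q-value under 0.05 (SOX6), beside 26 over all genes in place of 25. SOX6 is among the 11 genes marked in both WT lists as reported. Its start peaks missed this threshold in both WT lists and passed it in both 231K lists, so this gain follows from the cut. Genes gained in 232P were 0 to 2 leaving out each replicate, beside 12 to 105 over all genes. The total covered length at the -log10 q-value of 5 was 79.8 kb in WT, 78.8 kb in 231K and 28.4 kb in 232P. With lists of equal size it was 109 kb in WT, and with peaks joined it was 158 kb in WT and 151 kb in 231K. Genes called by limma in covered length in 232P were 0 to 1324 leaving out each replicate. The 1324, all lower, arose without 232P replicate 2, which leaves the lone replicate 1 assumed to vary like the other groups. In that fit TBX15 changed by -1.61 (SE 0.27) and TBX18 by -3.71 (SE 0.99) on the log2 scale. All other alternatives run, for either measure and line, gave 0 calls. With the replicate block there were 0 calls in all 4 tests, with 96 and 839 genes at an unadjusted p under 0.05 in covered length in 231K and 232P. Among the SOX and T-box genes these were TBX1 in 231K (limma p 0.0208, adjusted p 1) and TBX18 in 232P (limma p 0.00504, adjusted p 0.238). The differences between replicates correlated across genes with r of 0.210 to 0.328 between genotypes. The replicates also differ by number in peak width, but no label ties samples of the same number together, and with 2 numbers the fit without the block was kept. The fit with no filter took genes with a peak in 1 list or more, since genes without any peak have no spread. The number of reads is unknown, so no limit of detection is given.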
